A study of Mus musculus with 12 samples.

Results

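Psmb8, Psmb9, Psmb10, Gbp2, Gbp3, Irf1, Tap1 and B2m are immunoproteasome, antigen presentation and interferon-induced genes, and their levels are described here over primordial germ cell-like cells (PGCLCs) made in culture and primordial germ cells (PGCs) of mouse embryos. They are 8 of the 18194 genes measured on 12 Affymetrix arrays, and all 8 are among the 13436 genes tested, which exceeded 4.81, the median of all values, on at least 2 arrays. Psmb8 did so only on the d3 arrays. Where several probe sets named only that gene, the one brightest on average across the 12 arrays was used. The set was chosen by measured values, the high signal of these genes in day 3 PGCLCs, so every difference from day 3 is given as a description without a test.

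The arrays formed 6 groups of 2, which the titles call biological replicates. The groups d3, d6 female and d6 male were PGCLCs induced from embryonic stem cells, taken at day 3 (female cells) or day 6 (female or male cells). The group d3ag6 was female day 3 PGCLCs after 6 days in an aggregate, which in the study's design held gonadal somatic cells. All PGCLCs had a C57BL/6 background and carried the BVSC transgene, which reports Blimp1 (Prdm1) and stella (Dppa3). E12.5 PGCs were female and E9.5 PGCs were of unknown sex; both came from C57BL/6 males with the stella-EGFP reporter mated to wild-type BDF1 females. In every group, sorting selected for reporter-positive cells, and the purity of the sorted cells was not tested. Amplified cDNA made from 5 ng of RNA, that of 500 cells, was hybridised. Strain differs between all PGCLC groups and all PGC groups and cannot be told apart from cell origin.

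Values are log2 signals after quantile normalization between arrays, and a difference of 1 is a 2-fold change. In each group, 13 germ cell markers had a log2 summed signal of 15.37 to 15.81, and at least 12 of the 13 lay above 4.81 on every array. Of 23 blood and macrophage markers, 13 to 15 lay below 4.81 on the arrays of d3, d6 female, d6 male and E12.5, against 6 on both d3ag6 arrays and 11 and 14 on the E9.5 arrays. The array codes in the sample descriptions were EA1013 for d3, d6 female, d3ag6 and E12.5, and EA0831 (replicate 1) and EA0842 (replicate 2) for E9.5 and d6 male. Array code and group therefore cannot be told apart between the EA1013 groups and E9.5 or d6 male, whereas d6 male and E9.5 were balanced over codes. Fewer expressing cells and less RNA per cell cannot be told apart in these bulk samples.

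The proteasome degrades proteins tagged with ubiquitin. In immune cells and in cells exposed to interferon gamma, the catalytic subunits Psmb5, Psmb6 and Psmb7 are replaced in newly made proteasomes by Psmb8, Psmb9 and Psmb10, which favours peptides that fit class I major histocompatibility complex (MHC) molecules. Tap1 and Tap2 carry these peptides into the endoplasmic reticulum, where they bind class I heavy chains paired with beta-2 microglobulin (B2m); Irf1 is a transcription factor that activates many of these genes, and Gbp2 and Gbp3 are guanylate-binding GTPases of host defence.

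The regulatory sequence just upstream of these genes was searched because they share a high signal at d3, the trait by which they were chosen. Windows of 250 bases before to 50 bases after each annotated start were taken from RefSeq (build GRCm38.p6), 10 windows for the 8 genes, and 3 motifs were searched on both strands. The interferon-stimulated response element core, GAAANNGAA, occurred in 8.56% of the 32851 windows of the table, in a window of 9.76% of its genes, and in windows of 3 of the 8 genes, B2m, Gbp2 and Gbp3. The gamma-activated site bound by STAT factors, TTCNNNGAA, occurred in 8.3% of all windows, in 9.55% of all genes, and in windows of 2 of the 8 genes, Psmb8 and Irf1. The NF-kappaB core, GGGANTTTC, occurred in 1.11% of all windows, in 1.29% of all genes, and in 1 of the 8 genes, B2m. A match describes letters and is not evidence of binding.

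The 5 windows with a match are shown for the 150 bases before the start, 5′ to 3′ on the gene's strand, with the matched letters in capitals.
Psmb8 (chr17:34198045-34198194, + strand): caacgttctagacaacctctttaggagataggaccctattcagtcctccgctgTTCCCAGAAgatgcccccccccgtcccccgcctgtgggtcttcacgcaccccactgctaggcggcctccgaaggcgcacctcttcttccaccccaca
Irf1 (chr11:53769864-53770013, + strand): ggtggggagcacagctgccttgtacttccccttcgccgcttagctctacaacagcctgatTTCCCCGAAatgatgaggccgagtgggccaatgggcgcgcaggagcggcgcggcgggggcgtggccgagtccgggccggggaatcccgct
Gbp2 (chr3:142620513-142620662, + strand): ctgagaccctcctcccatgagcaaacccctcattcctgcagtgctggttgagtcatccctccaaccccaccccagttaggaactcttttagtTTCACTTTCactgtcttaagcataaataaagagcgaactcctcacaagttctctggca
Gbp3 (chr3:142559894-142560043, + strand): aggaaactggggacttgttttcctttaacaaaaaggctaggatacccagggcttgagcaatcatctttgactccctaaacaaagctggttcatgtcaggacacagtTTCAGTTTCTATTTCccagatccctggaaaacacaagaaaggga
B2m (chr2:122147537-122147686, + strand): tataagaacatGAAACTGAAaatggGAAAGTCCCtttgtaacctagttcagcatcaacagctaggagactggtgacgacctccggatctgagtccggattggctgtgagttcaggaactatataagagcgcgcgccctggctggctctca

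The Psmb8 match lies 97 to 89 bases and the Irf1 match 90 to 82 bases before the start, and both match on either strand. The Gbp2 match lies 58 to 50 bases before the start, and Gbp3 holds 2 overlapping matches, 44 to 36 and 38 to 30 bases before the start, all on the opposite strand. In B2m the response element core lies 139 to 131 bases before the start and the NF-kappaB core 125 to 117 bases before it. Psmb9 and Tap1 are transcribed away from each other, and the 225 bases between their annotated starts, printed because both genes share them, held none of the 3 motifs; nor did the window of Psmb10.
Psmb9-Tap1 interval (chr17:34187331-34187555, + strand, the strand of Tap1): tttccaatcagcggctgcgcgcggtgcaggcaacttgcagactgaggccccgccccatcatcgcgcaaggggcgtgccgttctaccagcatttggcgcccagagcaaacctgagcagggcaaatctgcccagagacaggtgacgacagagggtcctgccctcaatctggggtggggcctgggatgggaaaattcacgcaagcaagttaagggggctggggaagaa

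All 8 genes had their highest levels at d3: both d3 arrays lay above the other 10 arrays for 8 of 8 genes, a pattern that 5.49% of all genes tested showed and that the choice of genes fixed. The median difference over the 8 genes was -2.08 for d6 female minus d3 and -1.86 for d3ag6 minus d3, against -0.01 and 0.00 over all genes tested. In d6 female minus d3 1.72% of all genes tested were called higher and 2.34% lower (limma, adjusted p under 0.05), and in d3ag6 minus d3 5.81% and 4.84%; nothing is read from the 8 genes against these shares. The size of the drop differed widely, from Psmb8 to the small differences of Irf1 and Psmb9.

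**Figure D1:**
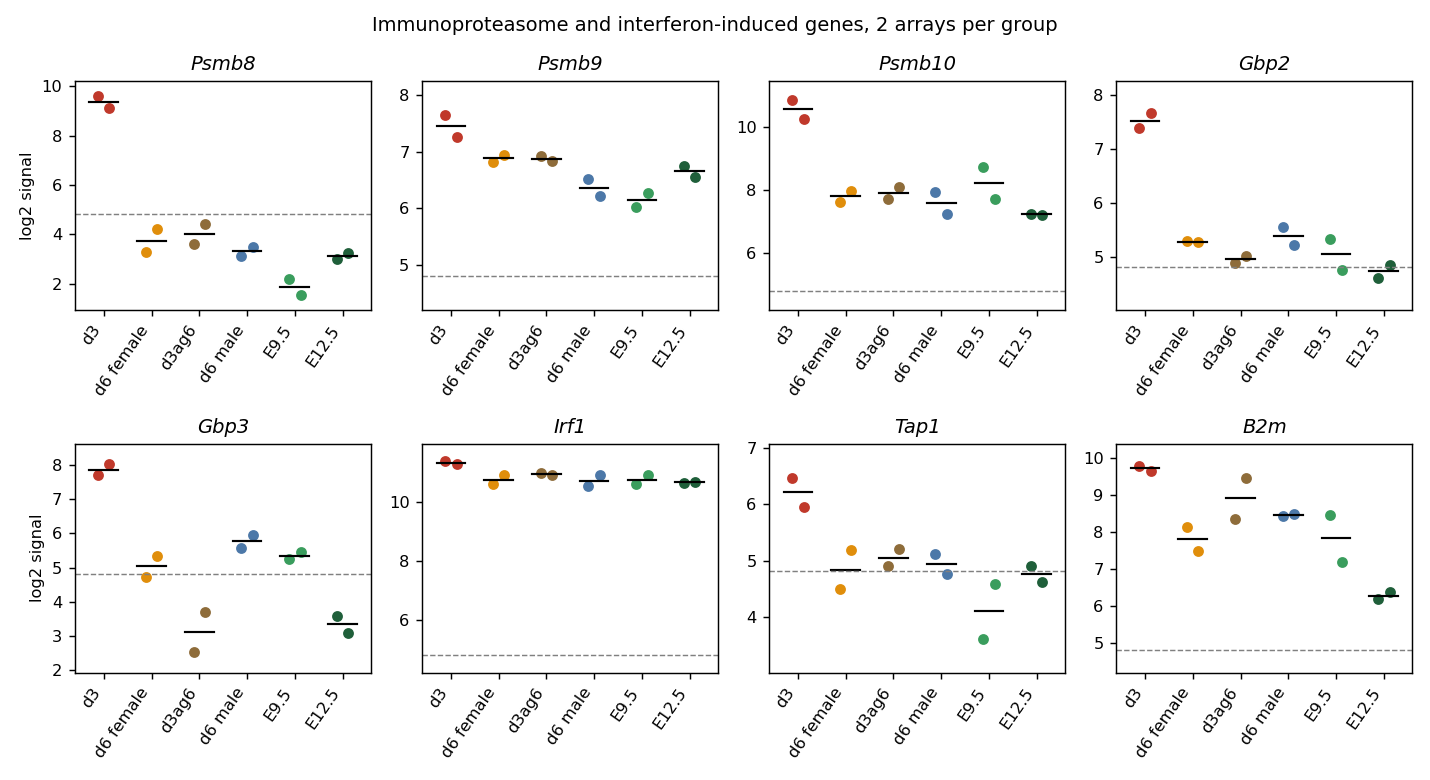
Log2 signal (y axis) of each gene on each array by group (x axis); points are arrays, solid bars are group means of 2 arrays, and the dashed line is 4.81, the median of all values. Both d3 arrays are the 2 highest in every panel, and the Psmb8 values of the other 10 arrays all lie below the dashed line.

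Among the catalytic subunits, Psmb8 (also known as LMP7) changed most. Its d3 arrays read 9.61 and 9.11, whereas d6 female read 3.28 and 4.21 and d3ag6 read 3.60 and 4.42. The d6 male arrays read 3.12 and 3.49, E12.5 read 2.98 and 3.26, and E9.5 read 2.18 and 1.54. The other 10 arrays thus all lay below 4.81, with a gap of 4.69 to the lower d3 array. The difference was -5.61 for d6 female minus d3 and -5.35 for d3ag6 minus d3, that is 48.8-fold and 40.7-fold lower; with values below 4.81 set to 4.81, both differences were -4.54. A further probe set of Psmb8 gave -4.23 and -3.93.

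Psmb10 (MECL-1) read 10.84 and 10.25 at d3. The d6 female arrays read 7.63 and 7.97, d3ag6 7.71 and 8.11, and d6 male 7.93 and 7.23. E9.5 read 8.72 and 7.73 and E12.5 read 7.24 and 7.23. Psmb10 thus stayed well above the median of all values in each group while lying at least 1.52 lower than d3 on all other arrays. It was 6.7-fold lower in d6 female and 6.21-fold lower in d3ag6 than at d3 (-2.74 and -2.64).

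Psmb9 (LMP2) was also highest at d3, on a smaller scale, and its order over the other groups was not that of Psmb8 or Psmb10. It read 7.64 and 7.25 at d3, 6.82 and 6.94 in d6 female and 6.93 and 6.83 in d3ag6. The E12.5 arrays read 6.75 and 6.55, d6 male 6.52 and 6.21, and E9.5 6.02 and 6.27. The lower d3 array stood 0.31 above the highest of the others, which is less than the spread between the d3 arrays. The difference from d3 was -0.57 for both d6 female and d3ag6, 1.48-fold.

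The constitutive counterparts did not show the drop. Psmb5 read 12.31 and 12.39 at d3 and 12.61 and 12.56 in d6 female, Psmb6 read 12.79 and 12.80 and then 12.80 on both arrays, and Psmb7 read 11.32 and 11.76 and then 11.81 and 11.72. Their differences ranged from 0.01 to 0.23 for d6 female minus d3 and from -0.06 to 0.34 for d3ag6 minus d3, and none of the 6 passed (limma, adjusted p from 0.37 to 0.992). Of 37 constitutive proteasome genes tested, 0 were called in either comparison by limma, with 0 and 2 at an unadjusted p under 0.05 and medians of 0.07 and -0.04. Leaving out each array in turn also gave 0, except that 3 were called higher in d6 female minus d3 without d3 replicate 2. The proteasome activator subunit Psme1, which interferon gamma also induces, differed by -0.22 (adjusted p 0.563) and -0.47 (0.0959).

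**Figure D2:**
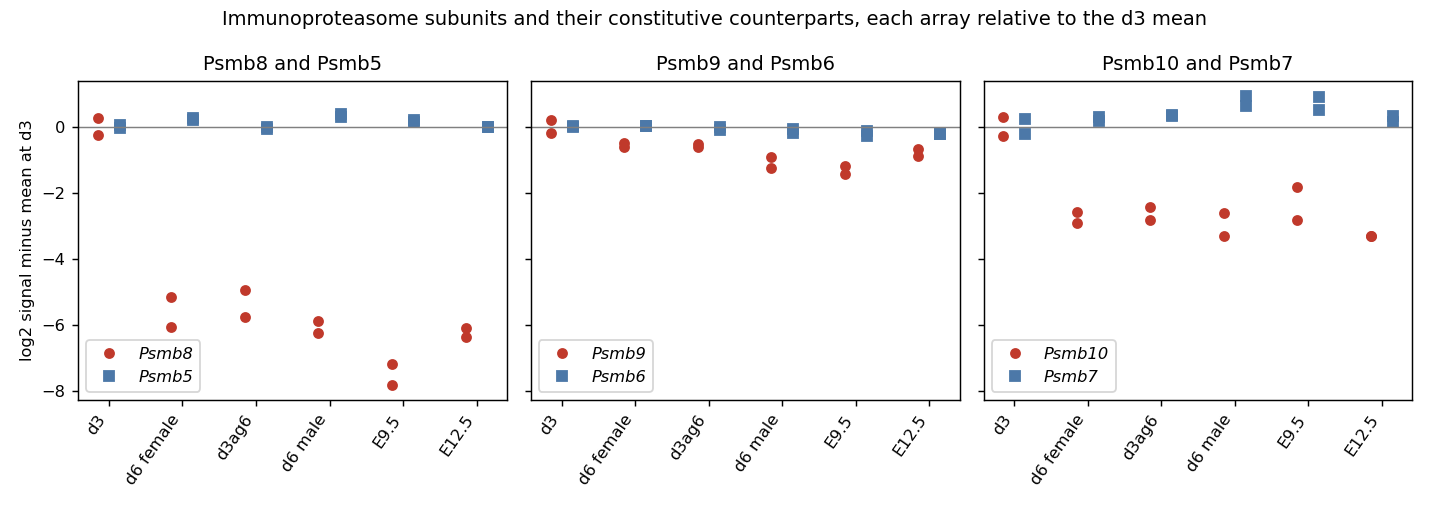
Log2 signal of each array minus that gene's mean at d3 (y axis) by group (x axis), for each immunoproteasome subunit (circles) and the constitutive subunit it replaces (squares). Psmb8 and Psmb10 lie far below 0 in all groups other than d3, Psmb9 lies less far below, and Psmb5, Psmb6 and Psmb7 show no such drop, with Psmb7 highest in d6 male and E9.5.

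The GTPases Gbp2 and Gbp3 were also high at d3 but parted in the other groups. Gbp2 read 7.39 and 7.66 at d3, 5.29 and 5.28 in d6 female, 4.90 and 5.02 in d3ag6 and 5.55 and 5.22 in d6 male. E9.5 read 5.33 and 4.76 and E12.5 read 4.62 and 4.86, so the groups other than d3 lay within 1 log2 unit of each other and close to the median of all values. Gbp2 was 4.73-fold lower in d6 female and 5.92-fold lower in d3ag6 than at d3 (-2.24 and -2.57), and its other, dimmer probe set gave -3.74 and -4.73.

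Gbp3 read 7.72 and 8.03 at d3. It was intermediate in d6 female (4.73 and 5.34), d6 male (5.59 and 5.96) and E9.5 (5.24 and 5.46), and lowest in d3ag6 (2.52 and 3.68) and E12.5 (3.58 and 3.10). The d3ag6 and E12.5 arrays lay below all arrays of the other 4 groups and overlapped each other. The difference from d3 was -2.84 in d6 female and -4.77 in d3ag6. Both d3ag6 arrays lay below 4.81, and with values below 4.81 set to it the differences were -2.80 and -3.06. Near-identical guanylate-binding genes may share probes with Gbp2 and Gbp3, so their separate levels are uncertain.

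Irf1 and Tap1 moved less. Irf1 read 11.37 and 11.29 at d3 and between 10.53 and 10.97 on the other 10 arrays, a median of 10.79. The lower d3 array stood 0.32 above the highest other array, and the differences of d6 female and d3ag6 from d3 were -0.58 and -0.39. Irf1 was thus bright in all 6 groups.

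Tap1 read 6.48 and 5.95 at d3, 4.49 and 5.18 in d6 female and 4.91 and 5.21 in d3ag6. The d6 male arrays read 5.12 and 4.76, E12.5 4.90 and 4.63, and E9.5 3.61 and 4.59. Of the other 10 arrays, 5 lay below the median of all values, so these levels are near the floor of the filter. Tap1 was 2.6-fold and 2.23-fold lower in d6 female and d3ag6 than at d3 (-1.38 and -1.16). Its 3 other probe sets were dimmer, with means of 3.16 to 3.46, and gave -0.51 to -0.09 for d6 female and -1.10 to 0.07 for d3ag6.

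B2m, the light chain of class I molecules, varied widely among the groups other than d3. It read 9.79 and 9.66 at d3, 8.13 and 7.49 in d6 female, and 8.36 and 9.47 in d3ag6. The d6 male arrays read 8.45 and 8.49, E9.5 8.46 and 7.21, and E12.5 6.20 and 6.38. The higher d3ag6 array lay 0.19 below the lower d3 array, and both E12.5 arrays lay below all 10 others. The difference from d3 was -1.91 in d6 female and -0.81 in d3ag6, and -2.09 and -0.82 with the other B2m probe set.

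Across the 6 groups, neighbours in order of mean level often overlapped. For Psmb8 the order after d3 was d3ag6, d6 female, d6 male, E12.5 and E9.5, and among these only E9.5 did not overlap the group next to it. For Psmb10 it was E9.5, d3ag6, d6 female, d6 male and E12.5, with each of these overlapping the next. For Gbp3 it was d6 male, E9.5, d6 female, E12.5 and d3ag6, with gaps between d6 male and E9.5 and between d6 female and E12.5. For B2m it was d3ag6, d6 male, E9.5, d6 female and E12.5, with E12.5 alone set apart.

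Among groups other than d3, whose differences were not used to choose the genes, 7 comparisons were tested with limma and p-values were adjusted over all genes tested. Psmb8 is an exception, because it passed the filter only through its d3 arrays, the values by which the genes were chosen. Its calls below are counted with the others, but they compare signal under 4.81 and nothing is read from them. In d3ag6 minus d6 female, 0 of 8 genes were called higher and 1 lower, against 4.03% and 2.36% of all genes. The call was Gbp3, with a difference of -1.94 (SE 0.38, adjusted p 0.021) and both d3ag6 arrays below both d6 female arrays. It was lost without d3ag6 replicate 1 (adjusted p 0.0883), d6 female replicate 1 (0.0626) or d6 female replicate 2 (0.106), and with values below 4.81 set to it the difference was -0.27 (adjusted p 0.511). B2m was 1.11 higher (SE 0.45), which did not pass (adjusted p 0.181).

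Comparing aggregated cells with PGCs of the gonad, d3ag6 minus E12.5, 1 of 8 genes was called higher and 0 lower, against 5.95% and 3.07% of all genes; 2 of 8 had an unadjusted p under 0.05, both higher. B2m was 2.63 higher in d3ag6 (SE 0.45, 6.18-fold, adjusted p 0.00831), and the groups did not overlap. The call was lost without E12.5 replicate 1 (adjusted p 0.0676), E12.5 replicate 2 (0.051) or d3ag6 replicate 2 (0.0613). Psmb8 was 0.89 higher, with both groups below 4.81, and did not pass (adjusted p 0.21).

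E12.5 PGCs had lower means than d6 female PGCLCs for 8 of 8 genes, with a median difference of -0.56, against -0.01 over all genes tested. These figures include Psmb8 (-0.63), which was tested only because of its d3 arrays. Both its groups lay below 4.81, and nothing is read from its part. Irf1 and Tap1 hardly differed (-0.086 and -0.075), and their arrays overlapped between the groups. Of the 8 genes, 2 were called lower and 0 higher, against 10.1% and 9.33% of all genes. Gbp3 differed by -1.70 (SE 0.38, adjusted p 0.0137) and B2m by -1.52 (SE 0.45, adjusted p 0.0428). The Gbp3 call was lost without E12.5 replicate 2 (adjusted p 0.102) or d6 female replicate 2 (0.0905), and with values below 4.81 set to it (0.44). Leaving out any single array of either group lost the B2m call (adjusted p 0.183 and 0.135 without E12.5 replicate 1 and 2, 0.229 and 0.0703 without d6 female replicate 1 and 2).

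Between the embryonic stages, E12.5 minus E9.5, 2 of 8 genes were called lower and 1 higher, against 10.7% and 12.9% of all genes. The 1 called higher was Psmb8, which was tested only because of its d3 arrays. Gbp3 differed by -2.01 (SE 0.38, 4.04-fold lower, adjusted p 0.00577), and among the members this call alone was kept without each array in turn (adjusted p 0.0216 to 0.0485); it was lost with values below 4.81 set to it (-0.54, adjusted p 0.0948). B2m differed by -1.54 (adjusted p 0.0353), and the call was lost without E12.5 replicate 1 (0.155), E12.5 replicate 2 (0.111) or E9.5 replicate 1 (0.184). Psmb8 was 1.26 higher (adjusted p 0.0442); it did not pass when a single array of either group was left out (adjusted p 0.118, 0.19, 0.0506 and 0.189 without E12.5 replicate 1 and 2 and E9.5 replicate 1 and 2). Psmb10 was -0.99 and did not pass (adjusted p 0.0807), but passed without E9.5 replicate 2 (-1.49, adjusted p 0.0253). Array code and stage cannot be told apart here.

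Day 6 PGCLCs were set against E9.5 PGCs, the stage at which PGCs migrate. In d6 female minus E9.5, 2 of 8 genes were called higher and 0 lower, against 8.33% and 5.6% of all genes. The 2 include Psmb8, which was tested only because of its d3 arrays. Psmb8 was 1.89 higher (SE 0.39, adjusted p 0.0136) with all 4 arrays below 4.81, and the call was lost without E9.5 replicate 2 (0.07) or d6 female replicate 2 (0.0907). Psmb9 was 0.73 higher (SE 0.19, adjusted p 0.0362) and did not pass when a single array of either group was left out (adjusted p 0.142 and 0.0573 without E9.5 replicate 1 and 2, 0.115 and 0.167 without d6 female replicate 1 and 2). Array code and group cannot be told apart in this comparison.

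In the comparison balanced over array codes, d6 male minus E9.5, 1 of 8 genes was called higher and 0 lower, against 6.04% and 4.55% of all genes. That gene was Psmb8, which was tested only because of its d3 arrays. Psmb8 was 1.45 higher (SE 0.39, adjusted p 0.0456), by 0.95 within EA0831 and 1.95 within EA0842. The adjusted p was 0.0508 with array code as a block, which is also the replicate number, and 0.0614, 0.184, 0.0854 and 0.194 without E9.5 replicate 1 and 2 and d6 male replicate 1 and 2. Psmb9 was 0.22 higher and did not pass (adjusted p 0.586). With values below 4.81 set to it, the Psmb8 differences from E9.5 were 0 in all 3 comparisons.

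Between the sexes at day 6, d6 female minus d6 male, 0 of 8 genes were called by limma, against 1.47% of all genes in either direction, and 1 of 8, Psmb9 (0.52, unadjusted p 0.0253, adjusted p 0.209), had an unadjusted p under 0.05. The differences ranged from -0.74 for Gbp3 to 0.52 for Psmb9. Array code and sex cannot be told apart here.

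**Figure D3:**
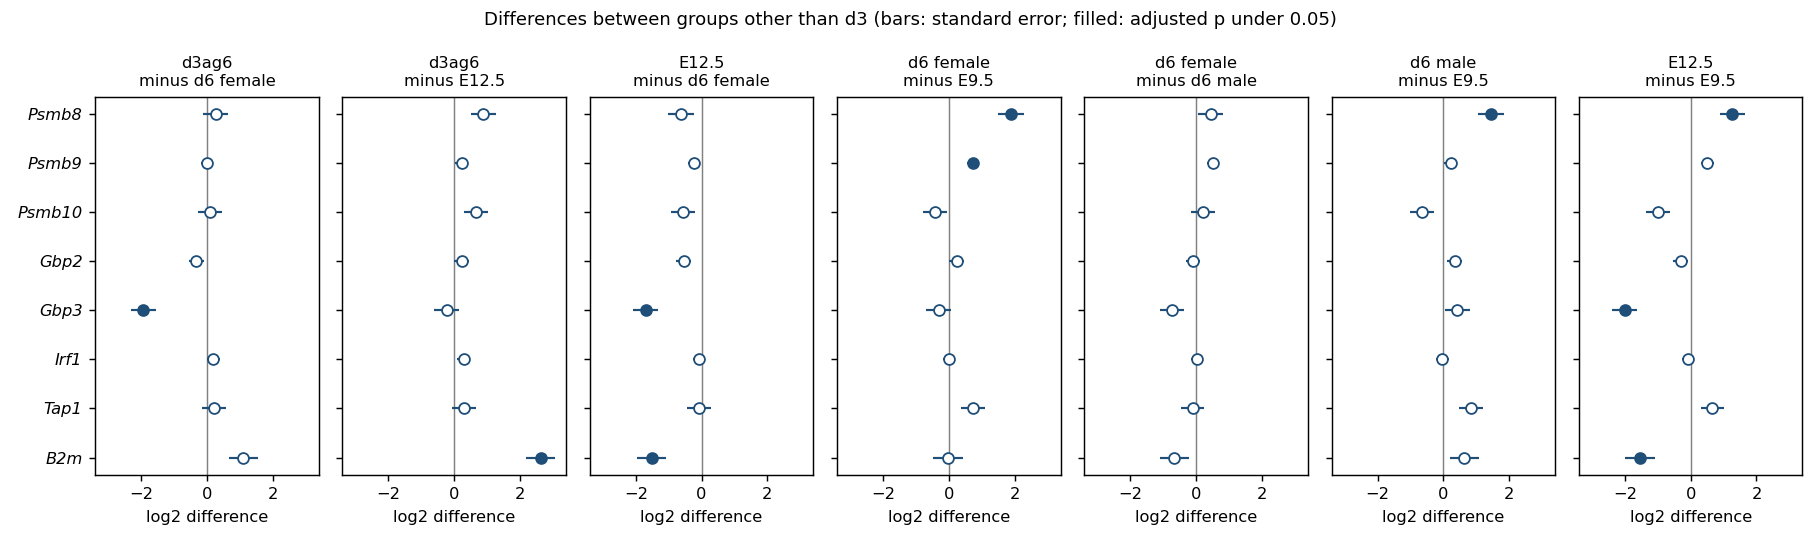
Log2 difference (x axis) of each gene (y axis) in the 7 comparisons without d3; points are differences of 2-array means, bars are standard errors of the limma fit, and filled points passed at an adjusted p under 0.05. The filled points are Gbp3 and B2m, lower at E12.5, Gbp3, lower in d3ag6 than in d6 female, and Psmb8 and Psmb9, higher than at E9.5. Psmb8 passed the filter only through its d3 arrays.

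The class I heavy chain genes H2-K1, H2-D1 and H2-Q2, whose products pair with B2m, had their lowest means at E12.5, as B2m did. Other H2 heavy chain genes tested, H2-M3 and H2-Q10, did not. They differed by 0.30 and 0.32 in E12.5 minus d6 female (limma, adjusted p 0.245 and 0.618) and by 0.29 and 0.58 in E12.5 minus E9.5 (0.227 and 0.303). Nor did Cd1d1 of the class I list, which differed by -0.45 (adjusted p 0.443) and 0.05 (0.94) in these comparisons. H2-K1 read 10.27 and 10.33 at d3, 8.79 and 9.82 in d6 female, 9.97 and 10.27 in d3ag6, 8.17 and 8.57 in d6 male, 9.01 and 9.15 at E9.5, and 7.67 and 7.62 at E12.5. In d3ag6 minus E12.5, 5.95% of all genes tested were called higher and 3.07% lower. There H2-K1 was 2.47 higher (SE 0.30, limma adjusted p 0.00162), H2-D1 was 2.23 higher (adjusted p 0.00367) and H2-Q2 was 3.49 higher (adjusted p 0.00039). These 3 calls held without each array in turn, with adjusted p up to 0.0205, 0.0379 and 0.0062, and they were 3 of 17 class I pathway genes called higher, with 0 lower. Against d6 female, H2-K1 was -1.66 at E12.5 (adjusted p 0.00554), H2-D1 -1.53 (0.0105) and H2-Q2 -2.15 (0.0016); the H2-D1 call was lost without E12.5 replicate 1 (0.0704), E12.5 replicate 2 (0.0534) or d6 female replicate 2 (0.0745). Class I heavy chain genes are near-identical to each other and differ between strains, so a probe set may read more than 1 gene and may read strains unequally; the part of either in these differences was not tested.

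Markers of blood cells and macrophages, cells that express class I genes strongly, were high in d3ag6 and on E9.5 replicate 1. B2m was highest at d3, the trait by which it was chosen, and these markers were low at d3. The log2 summed signal of 23 markers was 11.60 and 11.96 in d3ag6, against 9.88 and 9.72 at d3, 9.96 and 10.32 in d6 female, and 10.03 and 10.02 at E12.5; E9.5 had 11.93 and 10.60. In d3ag6 minus E12.5, 7 of 17 markers tested were called higher and 0 lower, against 5.95% and 3.07% of all genes tested. Among the 7 were Lyz2 (3.73, limma adjusted p 0.00039) and C1qc (4.57, 0.00151). The signalling adaptor Tyrobp was 1.27 higher (adjusted p 0.0102), a call lost without E12.5 replicate 1 (0.0813), E12.5 replicate 2 (0.0657) or d3ag6 replicate 2 (0.0825). The pan-leukocyte gene Ptprc was not tested because of its low signal and read 5.35 and 3.72 in d3ag6 and 3.07 and 1.27 at E12.5. The part of these markers in the B2m and class I levels was not tested.

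**Figure D4:**
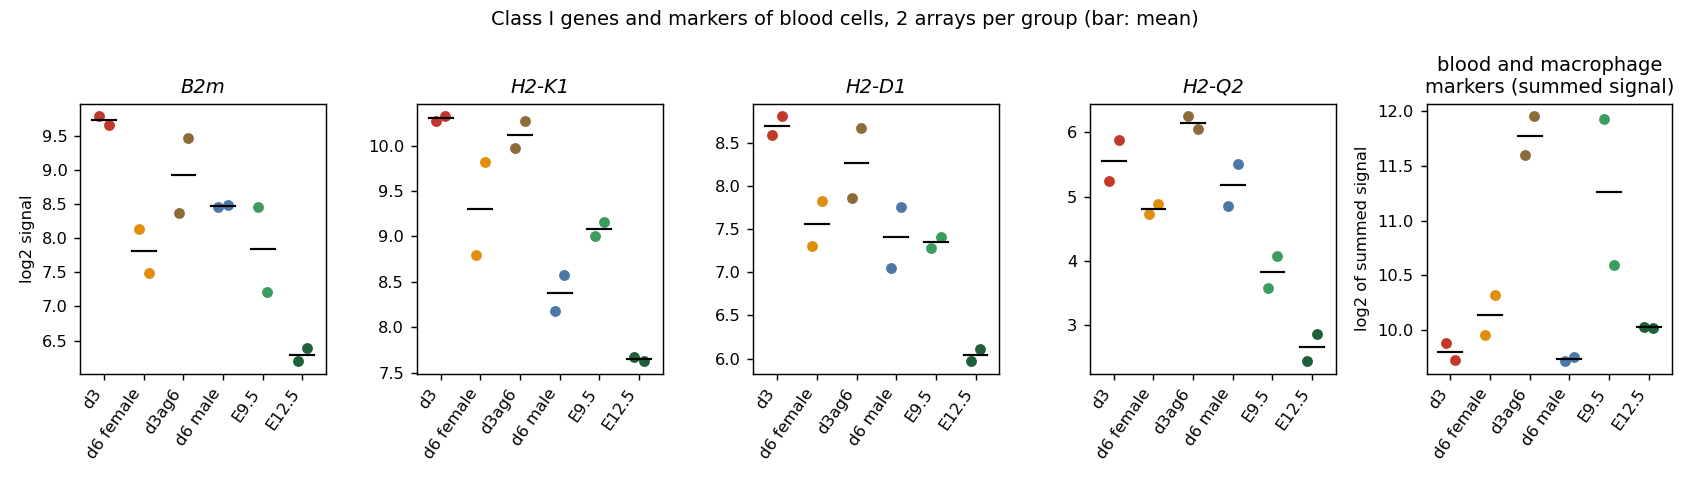
Log2 signal (y axis) of B2m and 3 class I heavy chain genes, and log2 of the summed signal of 23 blood and macrophage markers, by group (x axis); points are arrays and bars are means of 2 arrays. All 4 genes are lowest at E12.5, and the marker sum is high on both d3ag6 arrays and on 1 of the 2 E9.5 arrays.

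The rest of the antigen presentation pathway moved in part with the 8 genes when set against d3. Of 17 class I pathway genes tested, 2 were called lower in d6 female minus d3 and 4 in d3ag6 minus d3, and 0 were called higher in either. Among all genes tested, 2.34% and 4.84% were called lower and 1.72% and 5.81% higher. The peptide-trimming enzyme Erap1 is read from its brightest probe set. Averaging all its probe sets reversed its difference in E12.5 minus d6 female, given below. How its differences from d3 depend on the probe set is not given here. Erap1 read 7.37 and 7.13 at d3, 5.21 and 5.86 in d6 female and 3.60 and 4.01 in d3ag6. It fell by 1.72 (SE 0.26, adjusted p 0.00918) and by 3.45 (adjusted p 0.000139), and the former call was lost without d3 replicate 1 (0.0658) or d6 female replicate 1 (0.0718). Tap2, the partner of Tap1, differed by -1.02 (adjusted p 0.0437) and -1.35 (0.00684); the former did not pass without d3 replicate 1 (0.221) or 2 (0.0697) or d6 female replicate 1 (0.251) or 2 (0.139) and the latter without d3ag6 replicate 1 (0.0592).

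The tapasin gene Tapbp and the tapasin-like gene Tapbpl, which load peptide onto class I molecules, were called lower in d3ag6. Tapbp differed from d3 by -1.87 (adjusted p 0.0236) but did not pass without d3 replicate 1 (0.075) or 2 (0.11) or d3ag6 replicate 1 (0.0903) or 2 (0.128), and Tapbpl by -1.56 (0.00215), kept without each array (up to 0.0234). H2-K1 and H2-D1 did not pass against d3: they differed by -0.99 and -1.14 in d6 female (adjusted p 0.123 and 0.095) and by -0.18 and -0.44 in d3ag6 (0.789 and 0.461).

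Among all genes tested, 2.34% were called lower in d6 female minus d3 and 4.84% in d3ag6 minus d3. Of 5 other interferon-induced GTPases tested, 2 were called lower in d6 female minus d3, Igtp (-1.19, limma adjusted p 0.0108) and Gbp7 (-0.88, 0.0358). The count was 0 without d3 replicate 1, d6 female replicate 1 or d6 female replicate 2, and 1 without d3 replicate 2. In d3ag6 minus d3, 4 of 5 were called lower, Gbp7 by 1.60 (adjusted p 0.00112), Irgm1, Igtp and Gbp2b, and the count was 1 without d3 replicate 1 or d3ag6 replicate 1 and 2 without d3 replicate 2 or d3ag6 replicate 2, with Gbp7 called each time (adjusted p up to 0.0135).

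Other interferon-stimulated genes showed a split between the comparisons. Among all genes tested, 1.72% were called higher and 2.34% lower in d6 female minus d3, and 5.81% and 4.84% in d3ag6 minus d3. In d6 female minus d3, 1 of 40 was called higher, Parp12 (0.90, adjusted p 0.0486), and 0 lower by limma, with 3 higher and 6 lower at an unadjusted p under 0.05. The Parp12 call was lost without d3 replicate 1 (0.252), d6 female replicate 1 (0.266) or d6 female replicate 2 (0.151). In d3ag6 minus d3, 1 of 40 was called higher and 11 lower. The nucleic acid sensor Zbp1 read 8.02 and 8.08 at d3 and 5.74 and 5.57 in d3ag6, a difference of -2.40 (SE 0.20, adjusted p 0.000215). Parp9 differed by -1.58 (adjusted p 0.00164) and Nmi, a partner of STAT factors, by -1.29 (0.00341), and these 3 calls held without each array in turn. The count of genes called was 7 without d3 replicate 1 or 2, 5 without d3ag6 replicate 1 and 6 without d3ag6 replicate 2.

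The class I, interferon signalling, regulatory factor, GTPase and interferon-stimulated lists held 92 tested genes, the 8 genes left out. Among the 92, 2 were called higher and 4 lower in d6 female minus d3 (2.17% and 4.35%), with a median difference of -0.01. Of all genes tested, 1.72% were called higher and 2.34% lower in this comparison. The shares were 5.81% and 4.84% in d3ag6 minus d3, and 4.03% and 2.36% in d3ag6 minus d6 female. The count of 6 was 0 without d3 replicate 1 or d6 female replicate 1, 2 without d6 female replicate 2, and 0 when only the arrays of the groups compared were fitted. In d3ag6 minus d3, 5 were called higher and 20 lower (5.43% and 21.7%), with a median of -0.25; the count of 25 was 14 and 15 without d3 replicate 1 and 2 and 9 and 12 without d3ag6 replicate 1 and 2. The lists differed in d6 female minus d3: the 17 class I genes had a median of -0.47, with 7 lower and 0 higher at an unadjusted p under 0.05, and the 5 GTPases a median of -0.76, with 4 lower and 0 higher, whereas the 40 other interferon-stimulated genes had a median of 0.06. Both comparisons share the d3 arrays, and the difference between them was tested for d3ag6 minus d6 female, where 2 of 92 were called higher and 9 lower; that count of 11 was 3 and 4 without d3ag6 replicate 1 and 2, 4 without d6 female replicate 1 and 8 without d6 female replicate 2.

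**Figure D5:**
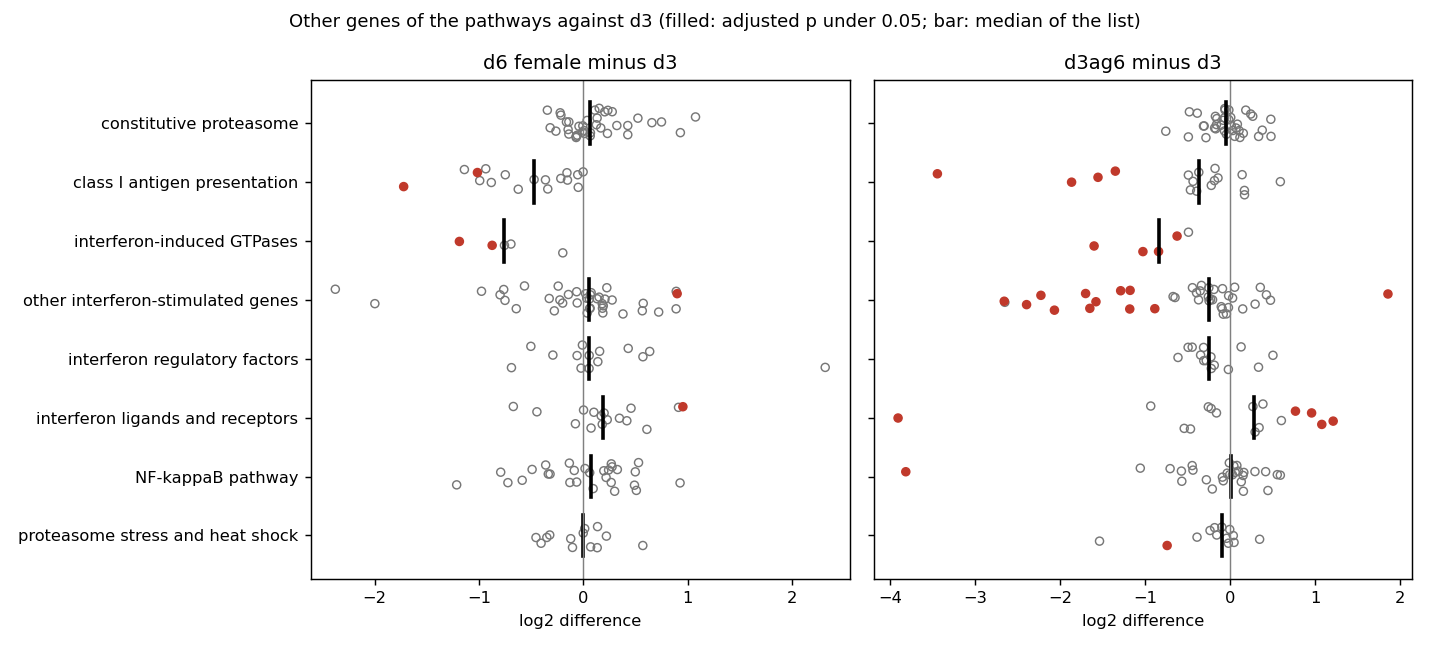
Log2 difference from d3 (x axis) of the tested genes of 8 lists (y axis), the members left out, for d6 female and d3ag6; points are genes, filled points passed at an adjusted p under 0.05, and thick bars are list medians. No gene of the constitutive proteasome list is filled, whereas all filled class I and GTPase points lie left of 0; the x axes of the panels differ in range.

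Upstream of the 8 genes, no receptor or kinase gene of the list was called lower against d3. The interferon gamma receptor genes Ifngr1 and Ifngr2 differed from d3 by 0.46 and 0.23 in d6 female and by 0.39 and -0.54 in d3ag6, and Ifnar1 and Ifnar2, of the type I receptor, by 0.00 and -0.67 and by -0.47 and -0.94; none of the 8 passed (limma, adjusted p 0.287 to 0.999). The kinases Jak1 and Jak2 were 1.21 and 0.96 higher in d3ag6 than at d3 (adjusted p 0.0145 and 0.0146), calls that did not pass without d3 replicate 2 (0.0772 and 0.0921), d3ag6 replicate 1 (0.0504 and 0.0607) or d3ag6 replicate 2 (0.101 and 0.0969). Of 14 regulatory factors tested, 0 were called in either comparison by limma, with 2 and 0 at an unadjusted p under 0.05; Prdm1, whose activity 1 of the reporters follows, differed by 0.43 and 0.13, and Irf9 by 0.57 and -0.61. The phosphatase gene Ptpn6 was called higher in both, by 0.95 (adjusted p 0.0119) and 0.77 (0.0142), calls lost without d3 replicate 1 (0.0761 and 0.0752), either d6 female array (0.0946 and 0.065) or either d3ag6 array (0.103 and 0.0536). Nlrc5, which activates class I genes, Stat2 and Socs1 were too dim to be tested.

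Socs3 and Bcl3, a pair of regulators, behaved unlike the 8 genes in culture. Socs3, which restrains cytokine signalling, read 9.52 and 9.70 at d3 and 8.99 and 9.35 in d6 female, but 6.31 and 5.10 in d3ag6 and 3.14 and 3.48 at E12.5. Its difference from d3 was -0.45 in d6 female (adjusted p 0.717) and -3.91 in d3ag6 (SE 0.46, adjusted p 0.00118). Bcl3, an NF-kappaB regulator, read 8.37 and 8.18 at d3, 8.59 and 9.02 in d6 female and 4.68 and 4.23 in d3ag6, a difference of -3.82 in d3ag6 (adjusted p 0.000271). It was the only 1 of 28 NF-kappaB genes called in d3ag6 minus d3; in d6 female minus d3, 0 were called, with 3 at an unadjusted p under 0.05. Of 13 stress and heat shock genes tested, 0 were called in d6 female minus d3, with 2 at an unadjusted p under 0.05, and 1, Atf4, was called lower in d3ag6 (-0.74, adjusted p 0.0151), which was lost without d3 replicate 2 (0.0808), d3ag6 replicate 1 (0.111) or d3ag6 replicate 2 (0.052).

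At E12.5, more of the 92 interferon and antigen presentation genes were called lower than higher against both d6 female and E9.5. In E12.5 minus d6 female, 23 were called lower and 4 higher (25% and 4.35%, against 10.1% and 9.33% of all genes tested); the count of 27 was 17 and 18 without E12.5 replicate 1 and 2, and 19 and 20 without d6 female replicate 1 and 2. In E12.5 minus E9.5 the calls were more mixed, with 15 lower and 9 higher (16.3% and 9.78%, against 10.7% and 12.9% of all genes tested), and the count of 24 was 11 and 9 without E12.5 replicate 1 and 2 and 15 without either E9.5 array. The receptor genes Ifngr2 and Ifnar2 were called lower in E12.5 minus d6 female (-1.50 and -2.05, adjusted p 0.018 and 0.0191), and Ifngr2 also in E12.5 minus E9.5 (-1.63, 0.0107). The Ifngr2 calls were lost without E12.5 replicate 2 (0.126 and 0.0813), the former also without d6 female replicate 1 (0.125) and the latter without E9.5 replicate 1 (0.0575). The Ifnar2 call was lost without E12.5 replicate 1 (0.117) or 2 (0.0665) or d6 female replicate 1 (0.113) or 2 (0.0557). Ifitm3, a membrane protein long used as a PGC marker, read 12.17 and 12.03 at E12.5 and between 12.92 and 13.36 on the other arrays, and differed from d6 female by -1.20 (SE 0.15, adjusted p 0.00098) and from E9.5 by -1.25 (0.000803). Erap1 differed from d6 female by -1.65 (limma, adjusted p 0.00292) and from E9.5 by -1.88 (0.00142), but by 0.12 from d6 female (0.902) when all its probe sets were averaged. Among all genes tested, 6.04% were called higher and 4.55% lower in d6 male minus E9.5. In the code-balanced comparison, d6 male minus E9.5, 19 of 92 were called higher and 2 lower (20.7% and 2.17%), and the antiviral gene Rsad2 was 2.32 higher (adjusted p 0.000187); the count of 21 was 12 without E9.5 replicate 2 or d6 male replicate 2, 14 without E9.5 replicate 1 or d6 male replicate 1, and 5 when only these 4 arrays were fitted.

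Genes with the most similar pattern over the 12 arrays were sought among 5372 tested genes whose highest and lowest group means differed by at least 1. These correlations describe 6 groups of 2 arrays that share processing, and they rest largely on the contrast with d3. For Psmb8 the nearest were Tacc2 (r 0.96), Igtp (0.952), Itpka (0.936), the class II gene H2-Eb1 (0.936) and Fgf4 (0.929). Gbp3 was nearest to Erap1 (0.971) and Gbp7 (0.964) and then to Abcb1b (0.957), with Erap1 again read from its brightest probe set. Psmb9 was nearest to Apobec3 (0.949), Pnma5 (0.944) and Nfic (0.932), Psmb10 to Trh (0.957), Adar (0.952) and Zdbf2 (0.947), and Gbp2 to Adar (0.943), Zdbf2 (0.938) and Trh (0.937). Irf1 was nearest to Cldn6 (0.93), Krt19 (0.913) and Pars2 (0.895), Tap1 to Scara5 (0.925), Mef2b (0.92) and Mtus1 (0.919), and B2m to Otub2 (0.97), Ece1 (0.951) and S100a10 (0.943). For the mean of the 8 genes, each centred and scaled, the nearest were Mthfd1l (0.957), Zdbf2 (0.954), S100a1 (0.927), Pir (0.925), Fgf4 (0.923), St8sia6 (0.922), Trim56 (0.917), Rab36 (0.911), Adar (0.909) and Igtp (0.905). Among the 8 genes themselves r ranged from 0.33 (Psmb9 with Gbp3) to 0.93 (Psmb10 with Gbp2) over 12 arrays, but from -0.56 (Psmb9 with Gbp3) to 0.71 (Psmb8 with Psmb9) over the 10 arrays without d3.

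Markers of other cells moved beside the 8 genes as well. The epithelial keratin genes Krt8 and Krt18 fell by 4.24 and 2.39 from d3 to d6 female (limma, adjusted p 0.00245 and 0.00269), 2 of 3 genes called lower among 13 gut, surface and visceral endoderm markers; the log2 summed signal of 14 such markers was 13.12 and 13.27 at d3 and 12.50 to 12.99 elsewhere. Cdx2 was the other gene called lower, and the visceral endoderm gene Cubn was called higher in d6 female (2.23, adjusted p 0.00483; 0.0515 without d6 female replicate 1). Of 13 gonadal somatic cell markers, Wnt5a and Amhr2 were called lower in d6 female than at d3 (-5.30 and -1.53, adjusted p 0.00246 and 0.0301); in d3ag6, Wnt5a was lower (-4.76, 0.00118) and Amhr2 and Rspo1 higher (1.59 and 3.46, 0.0129 and 0.0175). Of 13 endothelial markers only Tek was called, higher in d6 female (1.91, 0.0174), and of 17 blood and macrophage markers only Mpeg1 was called in d6 female minus d3 (1.54, 0.0358). Among 13 germ cell markers, 0 were called in d6 female minus d3 by limma, with 3 at an unadjusted p under 0.05. In d3ag6, 3 were called higher. These were the later germ cell genes Ddx4 and Dazl (2.97 and 4.86, limma adjusted p 0.00054 and 0.00163) and the stella gene Dppa3. Tfap2c was called lower (-0.60, 0.0282). How the Dppa3 call depends on single arrays is not given here. Of these calls, Mpeg1 and Tfap2c were lost without any single array of the groups compared (adjusted p 0.0819 to 0.174 and 0.0863 to 0.137). Tek and Amhr2 in d6 female were lost without d3 replicate 1 (0.0644 and 0.0888), d6 female replicate 1 (0.131 and 0.147) or d6 female replicate 2 (0.0628 and 0.135). In d3ag6, Amhr2 and Rspo1 were lost without d3ag6 replicate 1 (0.0623 and 0.0614) or d3ag6 replicate 2 (0.082 and 0.112), and Rspo1 also without d3 replicate 2 (0.0785). The part of these cells in the d3 levels was not tested.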

How the data were processed

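RNA of 12 samples was hybridised to Affymetrix mouse arrays. The deposited values are the authors' log2 signals, 1 for each probe set on each array; the log base was read from their range (array maxima 13.76 to 13.93), and summarisation and normalization before deposit are not given in the sources used here. Per the labels' protocols, cDNA was PCR amplified with 12 initial cycles. Values were quantile normalized between arrays, whose medians ran from 4.73 to 4.87. Of 45101 probe sets, 34958 named 1 gene and were used, 932 named several and 9211 none. Group means over the 12 arrays were fitted with limma 3.58.1 (R 4.3.3) and eBayes, 6 residual degrees of freedom, two-sided, with Benjamini-Hochberg adjustment over 13436 genes per comparison; the fit was tested on simulated data. The number of arrays limits the precision. Each p-value sets a difference against the spread between replicates, pooled over all 6 groups, and that spread may be technical. Members, lists and tests were chosen with earlier results of these data known. Genes named beside the members were a fixed pathway list, the 3 smallest p called per list against d3, and the 3, 5 or 10 highest correlations; H2-Q2, H2-M3, H2-Q10, Irgm1, Gbp2b, Ifitm3, Rsad2 and values of other named genes outside d3 were chosen after they were seen. Same-numbered arrays did not pair in general: their deviations correlated at -0.252 to 0.547, over 0.1 in 8 of 15 group pairs. Alternatives covered the filter, normalization, probe set rule, blocks, arrays fitted and each array left out. Python 3.11.15, pandas 2.3.3, numpy 2.4.6 and matplotlib 3.10.9 were used for tables and figures.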

Additional observations from a re-analysis of the deposited data

Results flagged for a closer look

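The B2m difference between aggregated and cultured PGCLCs departed from that between the embryonic stages. It was 1.11 higher in d3ag6 than in d6 female and -1.54 in E12.5 minus E9.5, a difference of differences of 2.65 (SE 0.63, limma adjusted p 0.0434), in a test added after the values were seen; 5.75% of all genes tested were called, and none of the other 7 members was (adjusted p 0.268 to 0.986). The call was lost without E9.5 replicate 1 (2.03, adjusted p 0.0847), d3ag6 replicate 2 (2.10, 0.134), d6 female replicate 1 (2.97, 0.0773) or 2 (2.33, 0.129), and E12.5 replicate 1 (2.56, 0.146) or 2 (2.75, 0.119). Array code and group cannot be told apart at E9.5.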

How the results depend on the processing

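The count of members called was 1 in d3ag6 minus d6 female, and 0 with only the groups compared or with values below 4.81 set to it (0 to 1 without single arrays); it was 1 in d3ag6 minus E12.5 (0 to 1 without single arrays). In E12.5 minus d6 female it was 2, and 1 with the mean of all probe sets, no filter, the replicate block, values as deposited or the floor at 4.81 (0 to 1). In d6 female minus E9.5 it was 2, and 1 with the 75th percentile filter, the mean of probe sets, no filter, values as deposited or the floor, and 0 with only the groups compared (0 to 1). In d6 male minus E9.5 it was 1, and 0 with the array code or replicate block, eBayes trend and robust, the mean of probe sets, no filter, only the groups compared or the floor (0 without any single array). In E12.5 minus E9.5 it was 3, and 1 without a filter or with the floor (1 to 3). Of 92 interferon and antigen presentation genes, 6 were called in d6 female minus d3, against 3 without a filter, 10 with only the EA1013 arrays, 0 with only the groups compared and 11 with the floor (0 to 4 without single arrays); 25 were called in d3ag6 minus d3, against 15 with the 75th percentile filter or only the groups compared (9 to 15). With all probe sets averaged, Erap1 in E12.5 minus d6 female turned from -1.65 to 0.12. The cause of these changes was not tested. The replicate block lost the member calls of B2m in E12.5 minus d6 female (adjusted p 0.053) and Psmb8 in d6 male minus E9.5 (0.0515), and the B2m difference of differences (0.0558), but no other member call; same-numbered arrays were not shown to be paired. Crossed numbers at d3, added after seeing the data, gave 9 and 27 calls where 6 and 25 were made. Over tested results and settings other than single arrays left out, 1099 kept direction and side of the threshold, 149 lost the call, 1 gained it and 1 reversed. Calls were lost more often when single arrays were left out, which leaves 1 array in a group. Dim signal limits Psmb8 outside d3, Gbp3 in d3ag6 and E12.5, and Tap1. The counts of members called include Psmb8, which was tested only because of its d3 arrays.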
